A study of Mus musculus with 28 samples.

Results

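Genes that regulate the fate of the hair germ and of its descendants, the hair matrix, were followed by symbol through all 12 RNA-seq libraries of the series. They are the homeobox genes Msx1, Msx2, Dlx2, Dlx3 and Cux1, the forkhead gene Foxn1, the zinc finger gene Trps1 and the growth factor gene Pdgfa. All 8 genes were found in each of 3 gene tables, which list 56691 genes for the bulge, 47243 for hair germ SHERRY2 and 57010 for hair germ SMART-seq. The libraries came from skin cells of conditional knockout mice (cKO, Alkbh5 deleted) and of wild-type mice (WT), all at postnatal day 69, and sorting was by flow cytometry. Each dataset had 2 cKO and 2 WT mice: bulge stem cells (200 ng of total RNA per SHERRY2 library), hair germ stem cells (40 ng per SHERRY2 library) and a SMART-seq set of the hair germ. No source used here gives the Cre driver, the deleted exon or the sorting markers, and the 16 m6A libraries of the series were not analysed here. ALKBH5 removes the methyl mark m6A from RNA. In SHERRY2 a transposase cuts and tags RNA/cDNA hybrids, while SMART-seq copies whole transcripts into cDNA before amplification.

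The hair follicle cycles between rest (telogen) and growth (anagen). The bulge holds its long-lived stem cells, and the hair germ below it sits against the dermal papilla and divides first when growth starts. Hair germ cells then form the matrix, whose cells differentiate into the inner root sheath and the hair shaft. Msx1, Msx2, Dlx2 and Dlx3 encode homeodomain proteins, and in mice loss of Msx2 or of Dlx3 in skin disturbs the making of the shaft. Foxn1 is the gene mutated in nude mice, whose hairs do not keratinise properly. Trps1 encodes a GATA-type zinc finger repressor of the follicle, Cux1 a homeodomain protein of the inner root sheath lineage, and Pdgfa a ligand that epithelial cells send to dermal cells.

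Levels are given as CPM, the share of a library's reads scaled to a common total, after TMM scaling, where TMM is a factor per library that sets the bulk of genes equal within a dataset. Depth was 14676168 to 21187283 reads in genes per bulge library and 9001396 to 14416601 per SMART-seq library. It was 1526070 and 2317407 reads for the cKO and 1513001 and 488648 for the WT hair germ SHERRY2 libraries. The deleted gene was checked first. Alkbh5 averaged 3.29 ± 1.29 CPM in bulge cKO and 101.4 ± 7.81 CPM in bulge WT (SD, n = 2 each), a log2 difference of -4.97 (adjusted p = 0.000492, edgeR). It averaged 12.3 ± 4.69 CPM in cKO and 59.3 ± 17.1 CPM in WT of hair germ SHERRY2, with no overlap and an adjusted p of 0.724 by limma and 0.00993 by edgeR on whole reads. In SMART-seq it stood at 83.2 and 105.5 CPM in the libraries labelled cKO and at 135.9 and 93.9 CPM in WT, so the label was not borne out by the transcript and directions in that dataset are those of the labels only. Y-linked genes and Xist placed a male among WT mice of the bulge (mouse 2), a male among cKO mice of hair germ SHERRY2 (mouse 1) and a male in each genotype of SMART-seq (mouse 2). The other mice were female. Follicle keratinocyte markers, among them Krt5, Krt14 and Cd34, summed over 16 genes to 30520 and 33120 CPM in bulge cKO and 40660 and 37650 CPM in bulge WT. For hair germ SHERRY2 they summed to 15230 and 34820 CPM in cKO and 28650 and 18210 CPM in WT. In bulk RNA, fewer cells of a type and less RNA per cell cannot be told apart.

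None of the 8 genes passed an adjusted p of 0.05 in any of the 3 datasets by the test used for each. The background differed widely between the datasets: 3.04% of genes tested passed in the bulge (476 of 15672), 0.0077% in hair germ SHERRY2 (3 of 38953) and 0.0% in SMART-seq (0 of 17547). In SMART-seq, edgeR gave 179 genes with an unadjusted p under 0.05, and DESeq2 also called 0. At an unadjusted p under 0.05 the 8 genes gave 0 in the bulge, where 18.9% of genes passed, 2 in hair germ SHERRY2 (Pdgfa and Msx2), where 4.62% passed, and 1 in SMART-seq (Msx2), where 1.02% passed. The median log2 difference of the 8 genes was 0.13 in the bulge, 0.49 in hair germ SHERRY2 and -0.32 in SMART-seq. Over all genes tested the medians were -0.01, 0.06 and -0.02 in the same order. The hair germ SHERRY2 median depended on the test and the scaling. By edgeR on whole reads it was -0.08 over the 7 genes tested (3 higher and 4 lower), beside -0.03 for all genes, and with library totals only in limma it was 0.07 (4 higher and 4 lower), beside -0.33 for all genes.

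**Figure D1:**
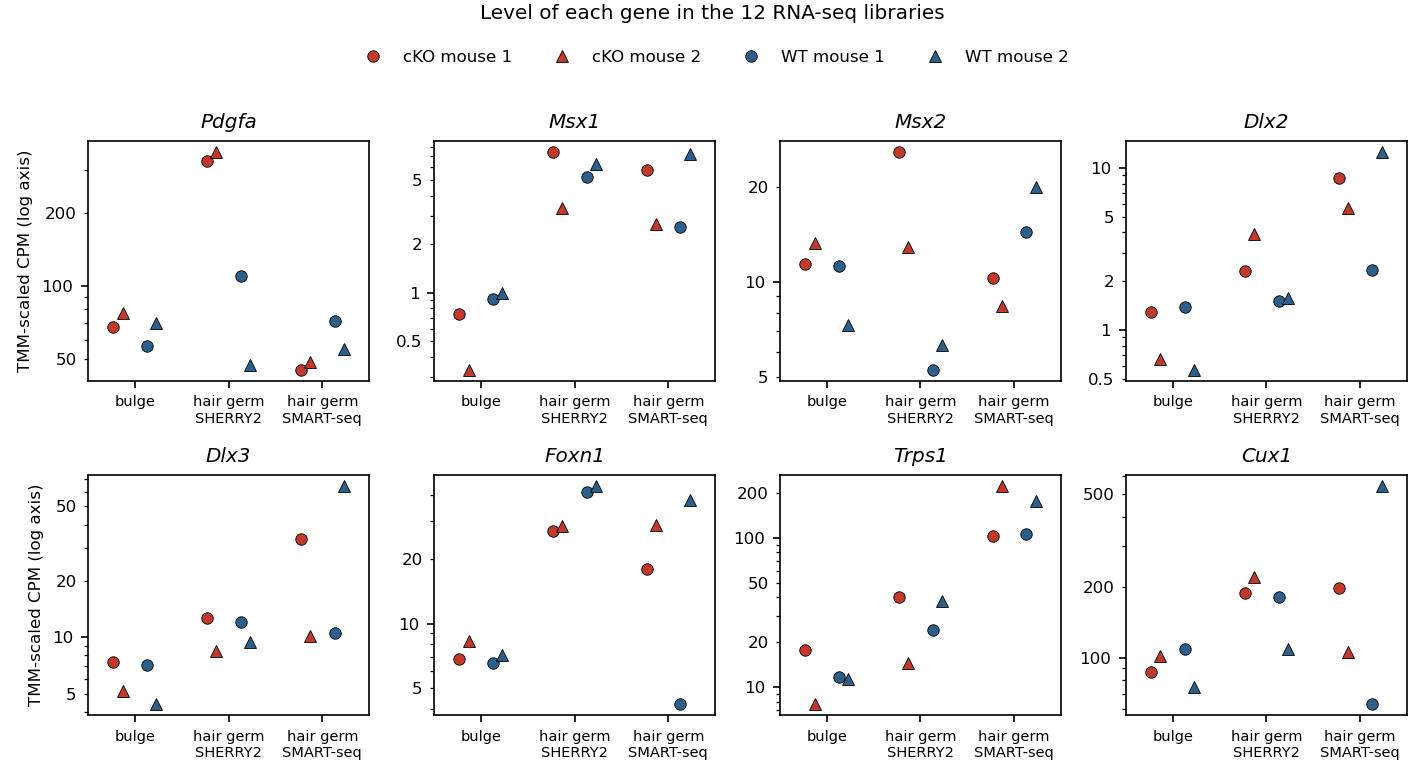
TMM-scaled CPM of each gene on a log axis in the 12 libraries, by dataset, with cKO (red) left of WT (blue) and mouse 1 as circles and mouse 2 as triangles. In hair germ SHERRY2 Pdgfa stood at 328 and 358 CPM in cKO, above the 109.7 and 47.2 CPM of WT, and in SMART-seq Cux1 stood at 543.5 CPM in WT mouse 2 and at 63.2 CPM in WT mouse 1.

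Pdgfa, the ligand, gave the largest log2 difference between genotypes among the 8, in hair germ SHERRY2. It lies on the minus strand of chromosome 5, from 138961769 to 138983125 in the bulge table, which names no build. Its hair germ SHERRY2 reads numbered 568 and 638 in the cKO mice, against 146 and 30 reads in the WT mice. After TMM scaling these were 328 and 358 CPM in cKO and 109.7 and 47.2 CPM in WT. Both cKO libraries lay above both WT libraries, and the WT libraries differed between themselves by 2.32-fold while the cKO libraries differed by 1.09-fold. The log2 difference on the scale of normalised count + 1 was 2.48 (SE 0.94, 95% interval 0.62 to 4.35), with an adjusted p of 0.97 by limma. By edgeR on the whole reads it was 2.08 (adjusted p = 0.563), and none of the 7 genes tested was called (Dlx2 did not pass the filter), where 0.377% of genes were (63 of 16707). In the authors' deposited table the log2 fold change was 2.29, with an adjusted p of 1.0.

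The call for Pdgfa depended on how libraries were scaled. With library totals only, chosen after the data were seen, the log2 difference was 2.04 (adjusted p = 0.0139, limma) and 1.98 (adjusted p = 0.0061, edgeR), and Pdgfa was then called where 0.0425% of genes passed in limma (16 of 37630). That scaling moved the median of all genes to -0.33 in limma. With the same scaling and any of the 4 libraries left out, limma gave 1.72 to 2.36 and adjusted p-values of 0.118 to 0.978, so the call was lost whichever was left out. With the size factors of the deposited table, limma without a library gave 1.70 to 3.27 on the log2 scale, with the lowest value without WT mouse 2, the shallowest library.

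Elsewhere Pdgfa stood close to equal between genotypes or the other way round. In the bulge it had 68.0 and 77.0 CPM in cKO and 56.7 and 70.1 CPM in WT, so the groups overlapped, and the log2 difference of 0.19 had a 95% interval of -0.20 to 0.59 (adjusted p = 0.597, edgeR). The authors' FPKM, which carry no TMM factor, were 23.1 and 26.2 in cKO and 16.8 and 21.6 in WT, without overlap. In SMART-seq it had 45.1 and 48.5 CPM in the libraries labelled cKO, against 71.4 and 54.7 CPM in WT. There the labelled cKO libraries lay below both WT libraries, with a log2 difference of -0.43 (adjusted p = 1.0, edgeR). The difference of the genotype effect between hair germ SHERRY2 and bulge was 1.78 on the log2 scale (SE 0.49, adjusted p = 0.242, joint edgeR fit), where 0.119% of genes passed. None of the 8 genes passed that test or the same test of SMART-seq minus bulge, where 0.0418% of genes did, or of SMART-seq minus hair germ SHERRY2, where 0.0% did. Whether strand was used in counting is not stated, and on the opposite strand Pdgfa overlaps 6330403L08Rik, which had 214 and 305 reads in bulge cKO and 247 and 122 reads in bulge WT.

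The PDGF receptor genes had few reads in the bulge. Pdgfra, the receptor for PDGF-A, had 6 and 11 reads in bulge cKO and 11 and 10 reads in bulge WT, and Pdgfrb had 3 and 6 reads in cKO and 5 and 7 reads in WT. In hair germ SHERRY2 Pdgfra had 34 and 20 reads in cKO and 35 and 26 reads in WT, or 19.65 and 11.2 CPM in cKO and 26.3 and 40.9 CPM in WT. Both cKO libraries lay below both WT libraries there (log2 -0.86, adjusted p = 0.97, limma), as for 20.8% of all genes tested. These reads were not set against the olfactory and vomeronasal receptor genes described below. In SMART-seq Pdgfra had 1.90 and 2.01 CPM in the libraries labelled cKO and 1.57 and 2.05 CPM in WT, which overlap. Among the ligands, Pdgfc rose in the bulge to 41.9 ± 1.32 CPM in cKO, against 20.4 ± 0.90 CPM in WT (SD, n = 2 each), a log2 difference of 1.03 (adjusted p = 0.023, edgeR). Hair germ SHERRY2 gave Pdgfc 35.2 and 15.1 CPM in cKO and 11.3 and 9.44 CPM in WT (adjusted p = 0.97, limma). In SMART-seq it had 12.5 and 12.6 CPM in the libraries labelled cKO and 27.8 and 14.6 CPM in WT (adjusted p = 1.0, edgeR). Of 8 PDGF receptors and partners, 4 could be tested in the bulge, where 1 rose and 0 fell, beside 3.04% of all genes called. None of these was called in the hair germ datasets. Pdgfb, another ligand, had 46.1 and 37.4 CPM in bulge cKO and 44.98 and 43.8 CPM in bulge WT, which overlap.

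Msx2, a homeobox gene of the matrix and shaft, stood second to Pdgfa in hair germ SHERRY2, with far fewer reads. It lies on the minus strand of chromosome 13, from 53620920 to 53627110 in the bulge table. It had 45 and 23 reads in hair germ SHERRY2 cKO and 7 and 4 reads in WT, which is 26.0 and 12.9 CPM in cKO and 5.26 and 6.29 CPM in WT. The groups did not overlap, and the log2 difference was 1.77 (SE 0.58, 95% interval 0.63 to 2.92, adjusted p = 0.872, limma). Without cKO mouse 1, the male, whose Msx2 was the highest, the log2 difference was 1.38. Bulge Msx2 had 11.4 and 13.3 CPM in cKO and 11.2 and 7.31 CPM in WT, apart by a narrow margin. The bulge log2 difference of 0.41 (adjusted p = 0.515, edgeR) was 0.13 without WT mouse 2, the male. In SMART-seq it went the other way, at 10.3 and 8.36 CPM in the libraries labelled cKO and 14.43 and 20.03 CPM in WT, a log2 difference of -0.88 (95% interval -1.69 to -0.07, adjusted p = 1.0, edgeR).

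The paralogue Msx1, on chromosome 5, was scarce wherever it was measured. It had 12 and 7 reads in bulge cKO and 18 and 14 reads in bulge WT, or 0.741 and 0.332 CPM in cKO and 0.919 and 0.994 CPM in WT. Both cKO libraries were the lower, and the log2 difference of -0.84 had a 95% interval of -2.64 to 0.95 (adjusted p = 0.619, edgeR). Hair germ SHERRY2 gave it 13 and 6 reads in cKO and 7 and 4 reads in WT, and the sign of its log2 difference differed between limma (0.06) and edgeR on whole reads (-0.10). In SMART-seq it stood at 5.76 and 2.68 CPM in the libraries labelled cKO and at 2.57 and 7.24 CPM in WT, which overlap.

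Upstream sequences were read to see what letters the promoters hold. RefSeq (GRCm38.p6) gave 7 start sites for 6 of the 8 genes, all on the minus strand, and the 250 bases before each were searched on both strands. The motifs were TAATTA and TAATTG, cores that homeodomain proteins bind, GGGCGG, the box of Sp factors, and CTTTGA, the core of Tcf/Lef sites. The upstream stretches of Msx2 (chr13:53472781-53473030) and Foxn1 (chr11:78386609-78386858) are shown because they hold TAATTA, and that of the distal of 2 Pdgfa start sites (chr5:138994945-138995194) for its paired Sp boxes. They are given 5′ to 3′ in the direction of the gene, and capitals mark matches, on either strand.
Msx2: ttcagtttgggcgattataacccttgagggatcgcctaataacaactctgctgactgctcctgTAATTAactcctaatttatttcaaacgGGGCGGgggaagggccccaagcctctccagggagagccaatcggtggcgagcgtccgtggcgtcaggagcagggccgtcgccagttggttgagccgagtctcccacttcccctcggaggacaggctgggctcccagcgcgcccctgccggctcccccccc
Foxn1: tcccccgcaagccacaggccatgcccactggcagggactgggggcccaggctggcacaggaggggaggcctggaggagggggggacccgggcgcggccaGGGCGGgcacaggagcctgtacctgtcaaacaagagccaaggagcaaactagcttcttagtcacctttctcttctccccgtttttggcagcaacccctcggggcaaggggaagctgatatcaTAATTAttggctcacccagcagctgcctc
Pdgfa: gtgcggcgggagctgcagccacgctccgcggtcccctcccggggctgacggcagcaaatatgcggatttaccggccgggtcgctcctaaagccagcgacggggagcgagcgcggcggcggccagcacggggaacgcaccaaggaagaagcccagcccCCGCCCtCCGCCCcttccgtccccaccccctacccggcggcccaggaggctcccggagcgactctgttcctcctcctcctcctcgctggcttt
TAATTA occurred upstream of 2 of the 7 start sites, at -187 for Msx2 and -29 for Foxn1, and in 4.84% of 32851 promoters. GGGCGG occurred at 6 of the 7 and in 32.7% of promoters, with neither TAATTG (7.17%) nor CTTTGA (13.8%) found at any of the 7. The 7 stretches held 61.6 to 72.4% G and C, beside a median of 52.4% for all promoters. The GGGCGG share was not corrected for this. Foxn1 had a CpG content of 0.281 (observed over expected), below the median of 0.373 for all promoters, whereas Pdgfa (0.871) and Msx2 (0.676) were above it. A match is a run of letters and not a measured site.

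Groups without overlap were common among all genes, so their number among the 8 is read against that. In the bulge 1 of 8 was higher in both cKO libraries (Msx2), where 24.7% of genes were, and 1 of 8 lower (Msx1), where 26.3% were. In hair germ SHERRY2 4 of 8 were higher in both cKO libraries (Pdgfa, Msx2, Dlx2 and Cux1), where 11.9% of genes were, and 1 of 8 lower (Foxn1), where 20.8% were. Those shares cover 38953 genes, of which 45.4% were highest in WT mouse 2, the shallowest library. Dlx2 was counted on at most 7 reads in any library. Whether 4 of 8 exceeds the share among genes of like read depth was not tested. In SMART-seq 0 of 8 were higher (11.8% of genes) and 2 of 8 lower in both libraries labelled cKO (Pdgfa and Msx2), where 12.4% were.

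**Figure D2:**
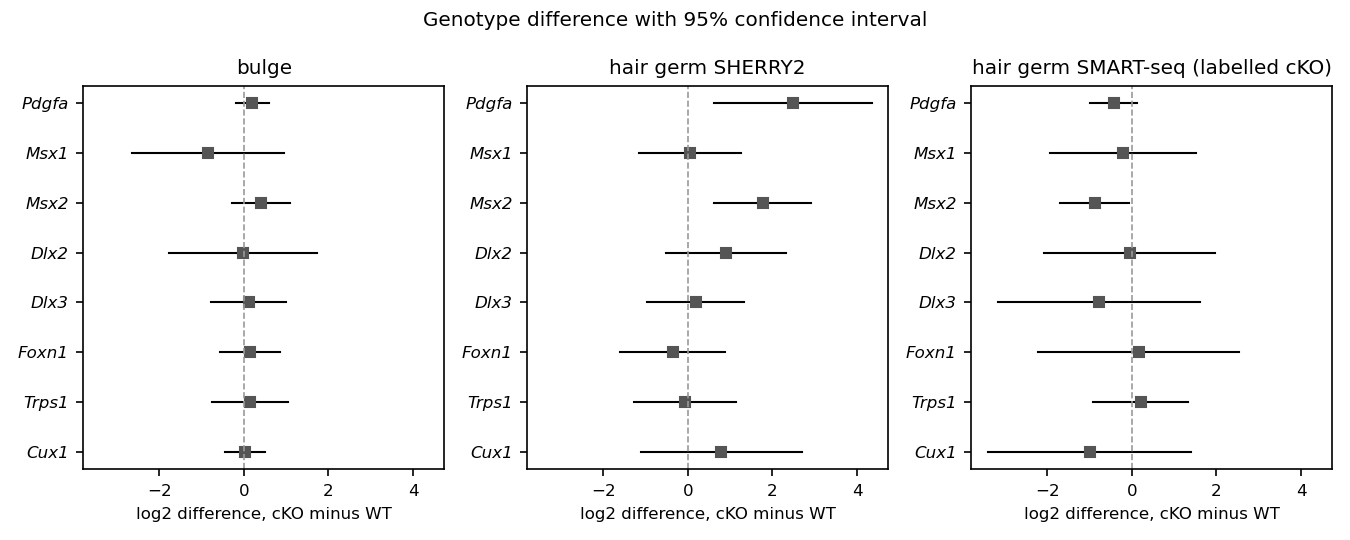
Log2 difference of cKO minus WT for each gene (squares) with its 95% confidence interval (lines), in the bulge and SMART-seq by edgeR and in hair germ SHERRY2 by limma. Unadjusted intervals exclude 0 for Pdgfa (2.48) and Msx2 (1.77) in hair germ SHERRY2 and for Msx2 (-0.88) in SMART-seq, and no gene passed after adjustment.

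The Dlx genes act in the matrix and its progeny. Dlx2, on chromosome 2, was near the detection limit in the bulge, with 21 and 14 reads in cKO and 27 and 8 reads in WT, and the groups overlapped. Its hair germ SHERRY2 reads were 4 and 7 in cKO and 2 and 1 reads in WT, apart, but with at most 7 reads in any library. SMART-seq held more, with 119 and 51 reads in the libraries labelled cKO and 33 and 148 reads in WT, and both extremes were WT mice.

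Dlx3, on the plus strand of chromosome 11, ran from 95010945 to 95016122 in the bulge table. Its bulge levels were 7.35 and 5.18 CPM in cKO and 7.10 and 4.40 CPM in WT, and its hair germ SHERRY2 levels were 12.7 and 8.41 CPM in cKO and 12.02 and 9.44 CPM in WT. Both pairs of groups overlapped, and the log2 differences were 0.12 (95% interval -0.78 to 1.01) in the bulge and 0.19 (-0.96 to 1.34) in hair germ SHERRY2. With edgeR the hair germ SHERRY2 value was -0.08. In SMART-seq Dlx3 stood at 33.4 and 10.1 CPM in the libraries labelled cKO and at 10.5 and 64.5 CPM in WT.

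Foxn1, also on chromosome 11 (minus strand, 78248403 to 78277384), was the exception in hair germ SHERRY2 in lying lower in both cKO mice. It had 27.2 and 28.6 CPM in cKO and 41.3 and 44.0 CPM in WT, with 47 and 51 reads in cKO and 55 and 28 reads in WT. The mice of a genotype lay close together, and the log2 difference was -0.36 (SE 0.62, 95% interval -1.60 to 0.89, adjusted p = 0.982, limma). The value was -0.66 by edgeR on whole reads and -0.79 with library totals only in limma. In the bulge it had 6.86 and 8.31 CPM in cKO and 6.59 and 7.17 CPM in WT, which overlap. In SMART-seq it had 17.9 and 28.8 CPM in the libraries labelled cKO, between the 4.21 and 37.7 CPM of the WT libraries.

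Trps1 and Cux1 are large genes, with 13380 and 20024 exonic bases. Trps1, on chromosome 15, had 17.8 and 7.69 CPM in bulge cKO and 11.7 and 11.4 CPM in bulge WT, the cKO mice lying on either side. Hair germ SHERRY2 gave 39.9 and 14.6 CPM in cKO and 24.0 and 37.8 CPM in WT, which overlap. SMART-seq gave 103.4 and 223.7 CPM in the libraries labelled cKO and 106.1 and 177.6 CPM in WT, with mouse 2 of each genotype (the males) the higher.

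Cux1, on chromosome 5, had 86.9 and 101.8 CPM in bulge cKO and 109.3 and 74.8 CPM in bulge WT, which overlap. Its bulge interval was the narrowest after that of Pdgfa, at a log2 difference of 0.03 with a 95% interval of -0.44 to 0.51. Hair germ SHERRY2 gave it 189.5 and 221 CPM in cKO and 181 and 108.5 CPM in WT, apart by a narrow margin, with a log2 difference of 0.79 (adjusted p = 0.97, limma). By edgeR on whole reads it was 0.46, with library totals only in limma 0.35, and in limma without WT mouse 2 it was 0.24. In SMART-seq it had 197.5 and 105.5 CPM in the libraries labelled cKO and 63.2 and 543.5 CPM in WT.

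In SMART-seq the spread between the 2 WT mice exceeded any difference between genotypes for several of the genes. WT mouse 2 was the highest of the 4 libraries for 6 of 8 genes (Msx1, Msx2, Dlx2, Dlx3, Foxn1 and Cux1), where 24.2% of all genes tested were highest in it. WT mouse 2 exceeded WT mouse 1 by 8.94-fold for Foxn1, 8.60-fold for Cux1, 6.15-fold for Dlx3 and 5.35-fold for Dlx2. On the scale of log2(CPM + 1), a gap as wide between these mice was reached by 0.809%, 0.706%, 1.31% and 2.5% of 11617 genes, in the same order of genes. Trps1 was highest in the second library labelled cKO, and Pdgfa in WT mouse 1. These mice also differ in sex, and the part of sex in the gap was not tested.

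Genes of the inner root sheath and shaft summed highest in the same library. Their summed level was 152.6 and 180.3 CPM in the libraries labelled cKO and 87.8 and 572 CPM in WT, over 30 genes of which 18 could be tested and none was called. Examples, chosen after their values were seen, are Krt71, an inner root sheath keratin, with 28.0 and 8.70 CPM in the libraries labelled cKO and 3.93 and 108.2 CPM in WT, and Krt75, a companion layer keratin, with 22.5 and 56.9 CPM in the libraries labelled cKO and 18.6 and 185.2 CPM in WT. Krt32 of the same list was not highest in WT mouse 2. It had 2.55 and 5.69 CPM in the libraries labelled cKO and 3.57 and 2.81 CPM in WT. Shh, a signal of the matrix, had 40 and 22 reads in the libraries labelled cKO and 13 and 182 reads in WT. A list of 30 other germ and matrix regulators summed to 4742 and 5217 CPM in the libraries labelled cKO and 4602 and 6027 CPM in WT. Such regulators varied between WT mouse 1 and WT mouse 2, with 464 and 1151 CPM for Notch1. Bmp2 had 24.9 and 25.7 CPM in these 2 mice, and Foxq1 13.6 and 6.90 CPM. Whether the sorted cells of WT mouse 2 included matrix cells was not tested. The 16 follicle keratinocyte markers summed to 21610 and 28550 CPM in the libraries labelled cKO and 26010 and 23130 CPM in WT.

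The sign of several SMART-seq differences rested on that library. Without WT mouse 2 the log2 difference was 0.73 for Msx1, 1.62 for Dlx2, 1.06 for Dlx3 and 1.27 for Cux1, against -0.20, -0.05, -0.78 and -1.001 with it. Foxn1 stood at 2.48 without it and at 0.16 with it. Msx2 and Pdgfa kept a negative sign whichever library was left out, at -1.10 to -0.62 for Msx2 and at -0.60 to -0.23 for Pdgfa.

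**Figure D3:**
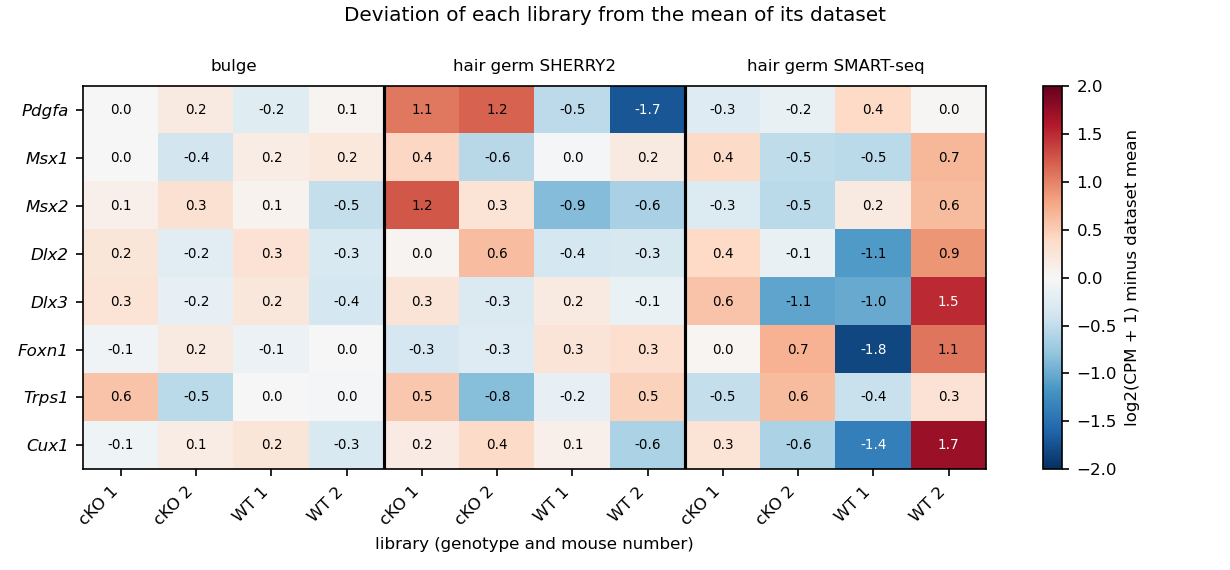
Difference of log2(CPM + 1) in each library from the mean of its dataset, for the 8 genes (rows) and 12 libraries (columns, cKO left of WT). Red marks a library above its dataset's mean, as for Pdgfa and Msx2 in hair germ SHERRY2 cKO and for Dlx3, Foxn1 and Cux1 in SMART-seq WT mouse 2, and blue one below it.

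Pearson's r of log2(CPM + 1), centred on each dataset's mean, was positive for 22 of 28 pairs over the 12 libraries, with a median of 0.37. Pairs of other genes were not summarised in the same way, so these values show nothing particular to the 8. The closest pair was Dlx3 and Cux1 (0.88), followed by Dlx2 and Cux1 (0.87) and Msx1 and Dlx3 (0.82). Pdgfa was nearest to Msx2 among the others (0.71). These values are descriptions over libraries of unequal depth and carry much of WT mouse 2 of SMART-seq and of the hair germ SHERRY2 libraries. For the 6 genes with a mean of at least 5 CPM in every dataset, 9991 other genes were ranked by the same measure. Nearest to Pdgfa stood Cd81 (0.98) and Brd2 (0.97), nearest to Msx2 Pitrm1 (0.94) and Polr3e (0.94), and nearest to Foxn1 Tnik (0.97) and Nckap5l (0.95). Robo1 was the nearest gene to both Dlx3 (0.91) and Cux1 (0.94), Dlx3 was next for Cux1 (0.88) and Lrrc8b next for Dlx3 (0.88). Nearest to Trps1 stood Wdfy1 (0.95) and Dnmt3a (0.94).

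Per length, Pdgfa was the most abundant of the 8 by mean in every group. In CPM per kb of exonic length it averaged 23.2 ± 2.04 in bulge cKO and 20.3 ± 3.05 in bulge WT, and the next gene, Cux1, averaged 4.71 ± 0.53 in cKO and 4.60 ± 1.22 in WT (SD, n = 2 each). In the bulge the order ran Pdgfa, Cux1, Msx2, Dlx3, Foxn1, Trps1, Dlx2 and Msx1 in both genotypes. Neighbours overlapped in both genotypes for Dlx3 and Foxn1 and for Dlx2 and Msx1, and in WT also for Msx2 and Dlx3. Hair germ SHERRY2 WT put Foxn1 above Cux1, at 13.3 ± 0.60 and 7.23 ± 2.56 CPM per kb. SHERRY2 cKO had the bulge order of these genes, with Cux1 at 10.3 ± 1.13 and Foxn1 at 8.67 ± 0.31 CPM per kb. In SMART-seq WT no neighbours in the order were apart, and in the libraries labelled cKO those from Pdgfa (15.0 ± 0.78) through Trps1 (12.2 ± 6.36), Dlx3, Cux1 and Foxn1 (7.27 ± 2.38) all overlapped their neighbours.

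The hair germ tables stood above the bulge table for most of the 8, a difference between tables made separately that was not tested. Trps1 is an example, with 163.6 ± 85.1 CPM in the SMART-seq libraries labelled cKO and 141.9 ± 50.6 CPM in SMART-seq WT. Hair germ SHERRY2, made by the method used for the bulge, had only 27.2 ± 17.9 CPM of Trps1 in cKO and 30.9 ± 9.70 CPM in WT. Bulge cKO had 12.8 ± 7.18 CPM of it and bulge WT 11.5 ± 0.24 CPM. Foxn1 averaged 23.4 ± 7.66 CPM and 20.9 ± 23.7 CPM in SMART-seq (labelled cKO and WT), against 7.58 ± 1.03 CPM and 6.88 ± 0.41 CPM in the bulge (cKO and WT). Pdgfa in SMART-seq, at 46.8 ± 2.43 CPM labelled cKO and 63.1 ± 11.8 CPM WT, did not exceed its bulge means of 72.5 ± 6.35 CPM in cKO and 63.4 ± 9.53 CPM in WT. Msx2 averaged 5.775 CPM in hair germ SHERRY2 WT, below the 9.27 CPM of bulge WT, and 19.45 CPM in SHERRY2 cKO. In SMART-seq it averaged 9.325 CPM labelled cKO, below the 12.36 CPM of bulge cKO, and 17.23 CPM in WT. The hair germ SHERRY2 reads of Msx1, Dlx2 and Trps1 are set against receptor genes below.

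Reads in hair germ SHERRY2 fell on 42826 and 40815 of the 47243 genes listed in cKO and on 39995 and 38272 in WT. Olfactory and vomeronasal receptor genes had a read in 95.5 and 92.5% of 1704 cases in cKO and in 92.4 and 86.9% in WT, against 2.0 to 3.3% in the libraries of the other datasets. Their median was 2.21 and 1.51 reads per kb in cKO and 1.48 and 1.06 in WT, over the 1697 with a known exonic length. Dlx2, at 1.40 and 2.45 reads per kb in cKO and 0.701 and 0.35 in WT, was matched or exceeded by 78.4 and 19.0% of these genes in cKO and by 83.0 and 83.2% in WT. Msx1 was matched by 12 and 33.2% of them in cKO and 21.6 and 37.6% in WT, and Trps1 by 5.48 and 33.2% in cKO and 18.5 and 23.6% in WT. Msx2 was matched by 0.236 and 0.884% in cKO and by 26.3 and 39.7% in WT, so its WT values were at the level of the receptor genes and its cKO values above most of them. Pdgfa was matched by 0.0% of receptor genes in both cKO mice and in WT mouse 1, and by 0.0589% in WT mouse 2.

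**Figure D4:**
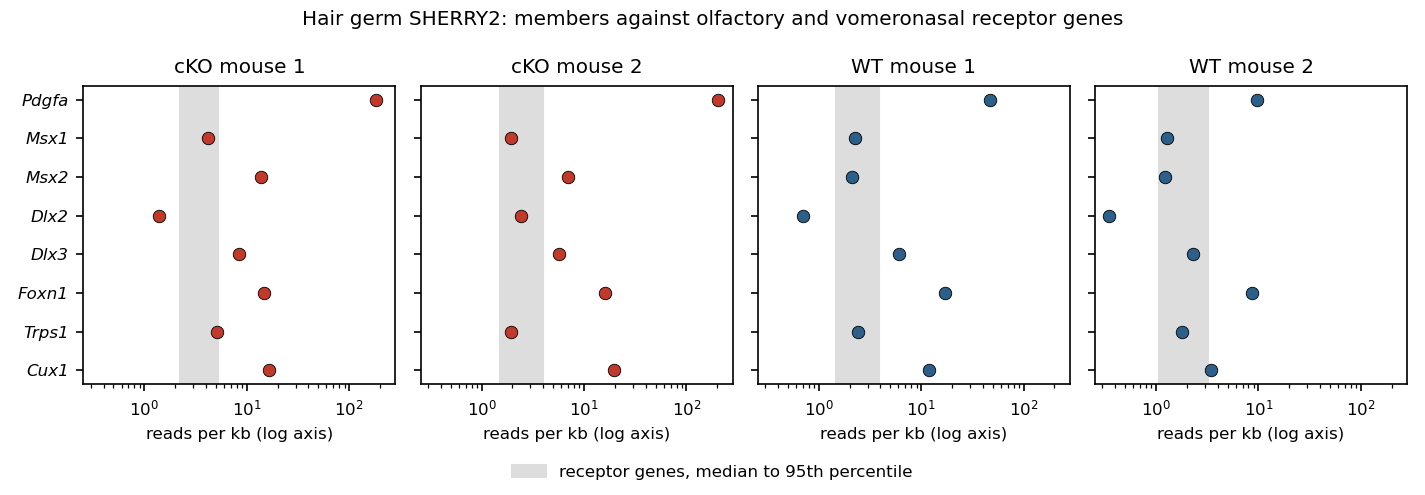
Reads per kb of exonic length (log axis) of the 8 genes in the 4 hair germ SHERRY2 libraries, cKO in red and WT in blue, with the median to 95th percentile of 1697 receptor genes shaded. Pdgfa lay to the right of the shaded band in all 4 libraries, Dlx2 lay inside or left of it in all 4, and Msx2 lay inside it in both WT libraries.

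Other genes of the germ and matrix program were described from a list of 30. In the bulge 29 could be tested, of which 1 rose and 2 fell, where 3.04% of all genes tested were called. Notch1, a receptor that guides matrix fate, rose to 972 ± 4.10 CPM in cKO, against 303.7 ± 96.6 CPM in WT (log2 1.68, adjusted p = 0.0161, edgeR). Foxq1, a forkhead gene of the shaft medulla, fell to 11.4 ± 2.19 CPM in cKO, against 44.98 ± 9.18 CPM in WT (log2 -1.98, adjusted p = 0.00738). Bmp2, a signal of the matrix and shaft, fell to 14.71 ± 0.25 CPM in cKO, against 37.5 ± 2.08 CPM in WT (log2 -1.35, adjusted p = 0.0116). The median log2 difference of the 29 was -0.14, beside -0.01 for all genes, and none of the list was called in either hair germ dataset. By limma in hair germ SHERRY2 the list's median was 0.50, with 25 of 30 genes positive, and that of the follicle keratinocyte markers was 0.46, with 13 of 16 positive, beside 0.06 for all genes. The 8 genes had a median of 0.49 in the same fit. In SMART-seq the list's median was -0.21, with 8 of 30 positive, beside -0.02 for all genes.

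Family relatives of the members numbered 12, of which 7 could be tested in the bulge. Only Pdgfc among them was called there, where 3.04% of all genes tested were. Of 30 shaft and inner root sheath genes 12 could be tested in the bulge and none was called. The lowest p among these belonged to Krt83, a shaft keratin with 22 and 38 reads in cKO and 3 and 1 reads in WT (adjusted p = 0.0655, edgeR), and Krt32, with 18.8 ± 3.43 CPM in cKO and 32.0 ± 1.52 CPM in WT (adjusted p = 0.0894).

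Markers of other cells moved beside the bulge comparison, in which 3.04% of all genes tested were called. Immune markers fell in 4 of 12 tested and rose in none, among them Cd74 and H2-Aa, which serve antigen presentation, and they summed to 132.1 and 85.8 CPM in cKO and 331 and 265 CPM in WT over 13 genes. Cd74 stood at 33.3 ± 10.7 CPM in cKO and 110.0 ± 22.4 CPM in WT. Immediate early genes, which respond to handling and stress, fell in 10 of 22, and they summed to 16390 and 4686 CPM in cKO and 54400 and 33020 CPM in WT. Interfollicular differentiation markers fell in 2 of 9 (Sprr1a and Krtdap). Follicle keratinocyte markers were called in 0 of 16, and Krt15, the bulge keratin, averaged 4813 ± 121 CPM in cKO and 8179 ± 172 CPM in WT (adjusted p = 0.0982, edgeR). Dermal papilla and fibroblast markers summed to 26.6 and 13.1 CPM in cKO and 22.0 and 12.1 CPM in WT over 15 genes, of which 3 were at 0 in all libraries. In hair germ SHERRY2 no gene of these lists was called. Interfollicular differentiation markers there summed to 2313 and 5689 CPM in cKO and 16140 and 1774 CPM in WT. Immediate early genes summed there to 17490 and 32220 CPM in cKO and 46420 and 22880 CPM in WT. Immune markers there summed to 539 and 416 CPM in cKO and 503 and 653 CPM in WT. The part of these lists in the values of the 8 genes was not tested.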

How the data were processed

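RNA-seq of 12 libraries was used, with 2 cKO and 2 WT mice in each dataset. Bulge and SMART-seq tables hold raw read counts per gene as deposited, and the bulge table also holds FPKM made by the authors (reads scaled by exonic size and library total), which followed from the counts within 0.495%. The hair germ SHERRY2 table holds a normalized signal deposited by the authors (read counts divided by a size factor), with their log2 fold changes and p-values, laid out as a DESeq2 result. There, 100% of values were whole multiples of 1 read within 0.01, so whole reads were recovered, with size factors of 1.364 and 1.225 for cKO and 1.022 and 0.6325 for WT. Per the submitters' processing notes, the tools for the SHERRY2 libraries include Trim Galore, STAR, featureCounts and DESeq2, with the builds GRCm38 and mm10, and HISAT2 and GRCm39 are also named for SMART-seq. Versions and the strand setting are not stated there. Coordinates are those of the bulge table, which differ from GRCm38, and no promoter coordinate is joined to them.

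For counts, edgeR 4.0.16 (quasi-likelihood, TMM, filterByExpr, R 4.3.3) was used. Hair germ SHERRY2 was tested with limma 3.58.1 on log2(normalized count + 1), leaving out genes whose mean was under 1, which understates changes of low genes, and edgeR on the recovered reads called 63 genes of 16707 there. Tests were two-sided, with Benjamini-Hochberg adjustment over all genes tested and a threshold of 0.05, and the scripts were tested on simulated data. Differences between datasets came from joint edgeR fits over genes shared by symbol. DESeq2 1.42.0, other scalings and filters, and libraries left out in turn were alternatives. Replicates are separate mice per the labels, which do not say whether equal mouse numbers pair mice. The correlation of deviations at equal numbers was 0.00758, -0.211 and 0.229 in the bulge, hair germ SHERRY2 and SMART-seq. In SMART-seq mice of equal number also share a sex, so number and sex cannot be told apart there. No 2 libraries of the same genotype and dataset held identical columns. Of other genes, the text draws on those of each list past an adjusted p of 0.05 (at most 4 by lowest p), otherwise the 2 with the lowest p in the bulge. Not all of these are named. The 2 genes most similar to a member are also given. Pdgfb, Pdgfra, Pdgfrb, Krt71, Krt75 and Shh are named outside that rule, after their values were seen. Krt5, Krt14 and Cd34 are also outside it and only show what their list holds. The 8 genes and all lists were chosen with earlier results of these data known. Of the bulge and SMART-seq IDs, 52073 of 56691 and 52029 of 57010 matched the gene name reference. Upstream sequences are from RefSeq.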

Additional observations from a re-analysis of the deposited data

Results flagged for a closer look

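The genotype effects of Pdgfa and Msx2 had opposite signs in some datasets, and joint edgeR fits tested how far the effects differed. The differences given here for these 2 genes had unadjusted p-values under 0.05 and did not pass adjustment over all genes. These fits do not test direction. The 95% intervals of Msx2 in the bulge (-0.28 to 1.10) and of Pdgfa in SMART-seq (-0.98 to 0.12) include 0. For Pdgfa the difference of hair germ SMART-seq minus hair germ SHERRY2 was -2.60 on the log2 scale (SE 0.65, adjusted p = 1.0, edgeR). For Msx2 the difference of SMART-seq minus bulge was -1.305 (SE 0.46, adjusted p = 0.718, edgeR), and that of SMART-seq minus hair germ SHERRY2 was -2.73 (SE 0.75, adjusted p = 1.0, edgeR). Of all genes tested for these differences, 0.0418% passed an adjusted p of 0.05 for SMART-seq minus bulge (8 of 19148). For SMART-seq minus hair germ SHERRY2 it was 0.0% (0 of 26194). The share of all genes at an unadjusted p under 0.05 was not counted. Alkbh5 itself differed in its genotype effect by 4.67 between SMART-seq and bulge (adjusted p = 0.0324, edgeR), and its SMART-seq groups overlapped. Its effect also differed by 2.55 between hair germ SHERRY2 and bulge (adjusted p = 0.0418, edgeR). The difference of 1.92 between SMART-seq and hair germ SHERRY2 did not pass. The method, the mice and the standing of the labels differ between these datasets and cannot be told apart.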

How the results depend on the processing

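Of the 8 genes, only Pdgfa was called under any setting, in hair germ SHERRY2 with library totals only (1 of 8 genes, log2 2.04 in limma and 1.98 in edgeR). Counts of all genes called moved more. In the bulge the 476 became 1191 with DESeq2, 1549 without the filter on low counts, 809 with library totals only (590 higher and 219 lower, as that scaling moved the median of all genes to 0.16) and 218 to 1601 with a library left out. In hair germ SHERRY2 the 3 became 0 with a pseudocount of 0.1, 0 without the filter on the mean, 0 with DESeq2, 63 with edgeR, 16 and 69 with library totals only in limma and edgeR, and 0 to 105 with a library left out. SMART-seq gave 30 in place of 0 without the filter. With the mouse number as a replicate block the counts were 506, 5 and 0 in the bulge, hair germ SHERRY2 and SMART-seq, and no call among the 8 genes changed. The cause of these moves was not tested.

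Signs of small differences turned, none of them called. Bulge Dlx2 (-0.02) was 0.0036 with DESeq2, 0.056 with the replicate block and 0.16 with library totals. In hair germ SHERRY2, Msx1 (0.06) was -0.10 with edgeR, and -0.30 and -0.20 with library totals in limma and edgeR. Dlx3 (0.19) was -0.084, -0.21 and -0.17 under these settings, and Trps1 (-0.07) was 0.059 with DESeq2. SMART-seq Dlx2 (-0.05) was 0.34 with the replicate block. With a library left out, bulge values ran from -0.22 to 0.33 for Cux1, -0.54 to 0.77 for Dlx2, -0.19 to 0.50 for Dlx3, -0.012 to 0.30 for Foxn1 and -0.55 to 0.62 for Trps1. Those of hair germ SHERRY2 ran from -0.14 to 0.52 for Dlx3, -0.36 to 0.47 for Msx1 and -0.67 to 0.54 for Trps1. Those of SMART-seq ran from -1.84 to 1.27 for Cux1, -0.81 to 1.62 for Dlx2, -1.87 to 1.06 for Dlx3, -0.70 to 2.48 for Foxn1, -0.85 to 0.73 for Msx1 and -0.46 to 0.67 for Trps1.

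With 2 mice per genotype, the 95% intervals of most of the 8 genes in the hair germ datasets span changes of more than 1.5-fold in either direction. In the bulge those of Pdgfa (0.872 to 1.5-fold), Msx2 (0.826 to 2.14), Foxn1 (0.677 to 1.8) and Cux1 (0.737 to 1.42) did not. A missed threshold therefore does not show equal levels. WT mouse 2 of hair germ SHERRY2 had 488648 reads, and there Msx1, Msx2 and Dlx2 had 1 to 4 reads.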
